A study of Homo sapiens with 12 samples.

Results

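Transcripts of 6 genes that handle acid and bicarbonate were followed in AsPC-1 cells, a standard culture line from a human pancreatic tumour. The genes were the carbonic anhydrases CA9, CA12 and CA2, the lactate transporter SLC16A1 and the bicarbonate transporters SLC4A4 and SLC4A7. They were chosen by name and found by matching symbols to the 57820 gene IDs of the count files, and all 6 were matched. Poly(A) RNA was sequenced in 12 libraries, 3 (replicates A, B and C) for each pairing of an oxygen level, normoxia or hypoxia, with an siRNA, siControl or siARNT. Normoxia was 21% O2 and hypoxia was 1% O2 for 24 h. All groups came from wells that received an siRNA by lipofection, either a scrambled one (siControl) or one against ARNT (siARNT), and that were split on the following day, with RNA taken 48 h after transfection. The groups therefore differ in oxygen and in the siRNA sequence, a group of untransfected cells was not analysed here, and the design describes 1 cell line. The labels name triplicate wells and nothing beyond that, so p-values measure the spread between these samples, which may be technical.

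Carbonic anhydrases convert carbon dioxide and water into bicarbonate and a proton, and back. CA9 and CA12 are anchored in the cell membrane with the catalytic domain outside the cell, whereas CA2 is a fast enzyme of the cytosol. Lactate and protons leave glycolytic cells together through monocarboxylate transporters such as SLC16A1 (MCT1), and sodium-coupled transporters of the SLC4 family, among them SLC4A4 (NBCe1) and SLC4A7 (NBCn1), bring bicarbonate into the cell. ARNT is the constant partner of the oxygen-regulated HIF alpha subunits, and also of the aryl hydrocarbon receptor. CA9 is widely used as a marker of HIF activity in tumours. The comparison between oxygen levels with siControl and with siARNT asks which changes differ when the ARNT transcript is lowered. It cannot separate HIF from other partners of ARNT or from other effects of the siRNA. CA9 was set against CA12 because the pair share a reaction and a location.

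HIF dimers bind a short core, read here as ACGTG or GCGTG on either strand, and the bases before the RefSeq start sites (GRCh38.p14) were searched for it because CA9 and CA12 are compared throughout. The window of 250 bases before the start held 1 match in CA9 and 1 in CA12. In SLC4A7, 1 of 2 start sites had matches, and in SLC4A4 none of 5 had one. CA2 and SLC16A1 were not searched. Of 35116 windows of the same length, 43.2% held at least 1 of the 2 forms, 18.5% held ACGTG and 32.2% held GCGTG. A match in such a window is thus common, and it describes the letters only. The stretches around the matches are shown 5′ to 3′ on the strand of the gene, with the match in capitals. A match on the opposite strand appears as CACGT for ACGTG and as CACGC for GCGTG.
CA9, chr9:35673898-35673927, plus strand: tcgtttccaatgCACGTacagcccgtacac
CA12, chr15:63382064-63382093, minus strand: ggcggatctcaccCACGCctgccagcagct
SLC4A7, chr3:27484484-27484528, minus strand: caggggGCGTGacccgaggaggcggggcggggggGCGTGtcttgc
The CA9 match was an ACGTG read on the opposite strand, 18 to 14 bases before the start. The CA12 match was a GCGTG read on the opposite strand, 234 to 230 bases before the start. GENCODE release 29 starts CA9 and CA12 further upstream, so that both printed stretches lie in the untranslated part of the first annotated exon. The SLC4A7 stretch holds 2 GCGTG cores and lies outside the exons of that annotation.

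Between 38.53 M and 84.34 M reads per library were assigned to a gene and 16999 genes passed the filter on low counts. ARNT stood between 60.7 and 72.2 CPM in the siControl libraries and between 12.8 and 15.99 CPM in the siARNT libraries, with no overlap. CPM is the usual depth-normalised read count, here with edgeR's TMM scaling between libraries. Summed over 6 epithelial markers, the level ran from 3704 to 8089 CPM, and its range lay highest in normoxia siARNT (5217 to 8089 CPM); the part of this in the results was not tested. Of 15 markers of acinar, endocrine, stromal, endothelial and blood cells, 14 were matched, and their sum ran from 1.72 to 2.65 CPM, with each under 1 CPM on average. Counts followed the GC content of genes differently between libraries: the slope was 0.42 log2 units per 10 percentage points of GC in normoxia siARNT B, 0.24 in hypoxia siARNT C, and from -0.20 to 0.12 in the other 10. GC content was taken from the longest annotated transcript of each gene. CA9, at 60.1% GC, lies above the median of tested genes (47.7%), and CA12 lies closer to it (50.2%). Values after removal of each library's trend on GC are therefore given beside the members' results whose call they change or whose size they move most.

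CA9 (ENSG00000107159.8, chr9:35673856-35681159, plus strand, GRCh38) rose steeply under hypoxia in siControl cells, and its change in siARNT cells differed from that by the interaction test. In normoxia siControl it held 11.3, 12.8 and 12.0 CPM in replicates A, B and C, from 584 to 841 reads. In hypoxia siControl it held 112.6, 129.9 and 104.7 CPM, from 4876 to 7464 reads. In hypoxia siARNT the same gene held 23.5, 25.0 and 31.1 CPM, and in normoxia siARNT 20.3, 28.6 and 18.3 CPM. The hypoxia siControl libraries stood far above the other 9, and the 2 siARNT groups overlapped each other. Both siARNT groups lay above normoxia siControl.

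By edgeR, the log2 fold change of CA9 for hypoxia was 3.27 with siControl (SE 0.17, adjusted p 4.40e-07). With siARNT it was 0.24 (SE 0.16, adjusted p 0.414). In hypoxia, siARNT lowered CA9 4.37-fold, a log2 fold change of -2.13 (SE 0.16, adjusted p 3.17e-06). The interaction subtracts the siControl response to hypoxia from the siARNT response, and for CA9 it was -3.02 (SE 0.23, adjusted p 3.42e-05). After the GC correction the CA9 interaction was -2.63 (adjusted p 2.03e-10). In normoxia, siARNT raised CA9 by 0.90 (SE 0.16, adjusted p 0.00346). That rise was 0.67 without normoxia siARNT B and 0.42 after the GC correction (adjusted p 0.000236), the same direction at a smaller size. The change for hypoxia in siARNT became 0.46 after the GC correction and then passed the threshold (adjusted p 0.000258). Uncorrected, it was 0.46 without normoxia siARNT B and 0.11 without hypoxia siARNT C. On the opposite strand CA9 overlaps ARHGEF39, whose counts ran from 966 to 2087. ARHGEF39 was called in none of the 5 comparisons and changed by 0.03 for hypoxia in siControl (SE 0.09, adjusted p 0.848).

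**Figure D1:**
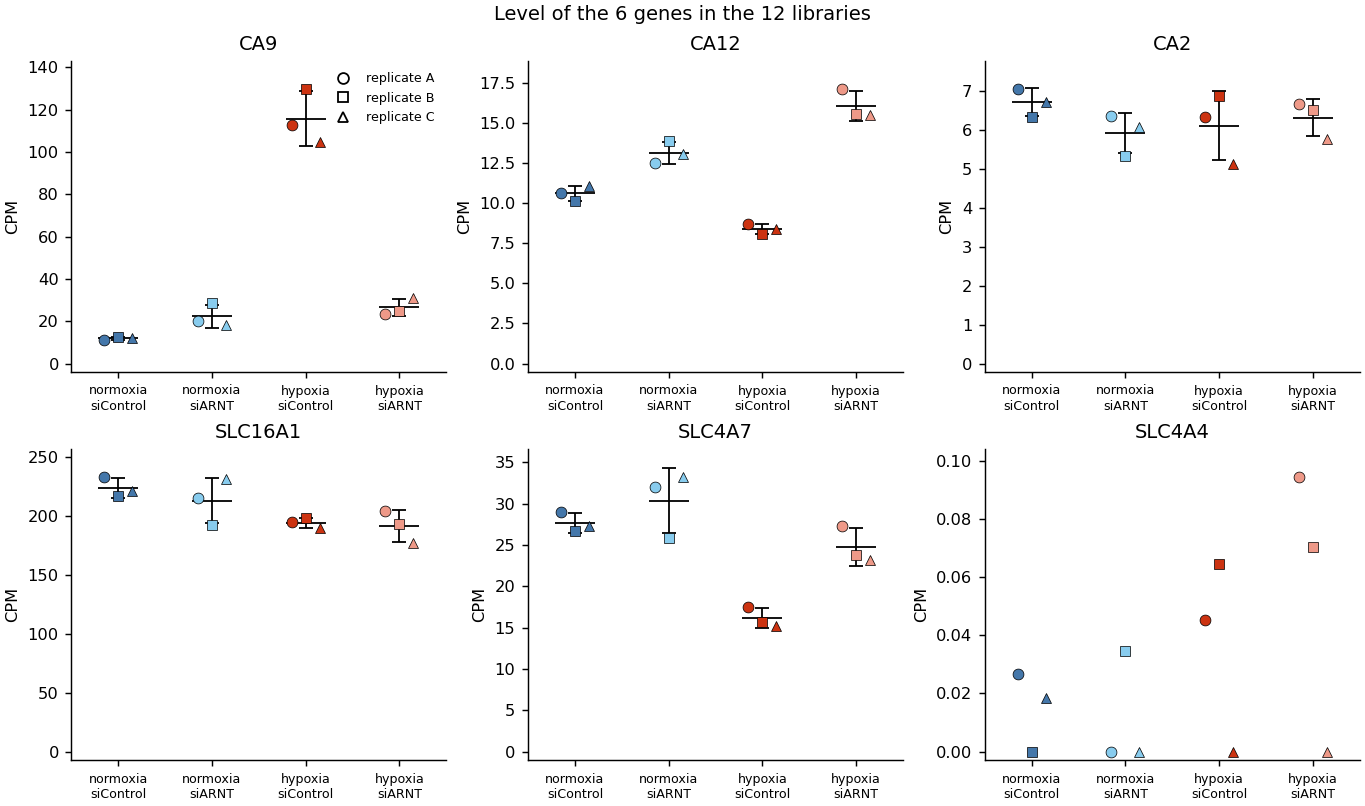
Level in CPM (vertical axis, from 0) of each of the 6 genes in the 12 libraries, by group (horizontal axis). Symbols are single libraries, horizontal bars are group means and error bars are SD (n = 3), which are left out for SLC4A4. CA9 stood at 104.7 to 129.9 CPM in hypoxia siControl against at most 31.1 CPM elsewhere, whereas CA12 was lowest in that group.

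CA12 (ENSG00000074410.9, chr15:63321378-63382161, minus strand) fell under hypoxia in siControl cells and rose with siARNT. It held 10.6, 10.2 and 11.1 CPM in normoxia siControl and 8.72, 8.06 and 8.41 CPM in hypoxia siControl. It held 12.5, 13.9 and 13.1 CPM in normoxia siARNT and 17.1, 15.5 and 15.5 CPM in hypoxia siARNT. No 2 of the 4 groups overlapped, and the order from high to low was hypoxia siARNT, normoxia siARNT, normoxia siControl and hypoxia siControl. The libraries held 375 to 1068 CA12 reads.

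For hypoxia in siControl, CA12 fell by 0.34 on the log2 scale (SE 0.08, adjusted p 0.0102). For hypoxia in siARNT its log2 fold change was 0.29 (SE 0.08) and missed the threshold (adjusted p 0.0687). It passed after the GC correction (0.32, adjusted p 0.0030), with DESeq2 (0.30, adjusted p 0.0312) and with scaling by total counts (0.32, adjusted p 0.0279). CA12 rose with siARNT by 0.93 in hypoxia (SE 0.08, adjusted p 7.61e-06) and by 0.31 in normoxia (SE 0.08, adjusted p 0.0234). Its interaction was 0.63 (SE 0.12, adjusted p 0.0118), opposite in sign to that of CA9. It was not called with the transfected well as a block (0.63, adjusted p 0.0625) or without a filter on low counts (adjusted p 0.0556). The fall under hypoxia was not called without normoxia siControl C (-0.30, adjusted p 0.0589). The rise with siARNT in normoxia was not called without normoxia siARNT B (0.26, adjusted p 0.0847) or without any 1 of the normoxia siControl libraries (0.28 to 0.32, adjusted p 0.0638 to 0.0959).

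The ratio of CA9 to CA12 reads within a library does not depend on the scaling between libraries. It was 1.06, 1.26 and 1.09 in normoxia siControl, 1.62, 2.06 and 1.40 in normoxia siARNT, and 1.37, 1.61 and 2.01 in hypoxia siARNT. In hypoxia siControl it was 12.9, 16.1 and 12.4. The mean ratio was 13.8 ± 2.00 in hypoxia siControl and 1.14 ± 0.107 in normoxia siControl (SD, n = 3). Between these groups the log2 ratio differed by 3.60. It differed by -3.06 between hypoxia siARNT and hypoxia siControl, by 0.56 for siARNT in normoxia and by -0.03 for hypoxia in siARNT. With 3 against 3 libraries the exact two-sided permutation test gave p = 0.1 for the first 3 differences, the smallest p it can give, and p = 0.7 for the last (adjusted over 4 tests, 0.133 and 0.7).

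Within a group, the ratio was highest in the library with the highest slope of counts on GC content, which was negative in all 3 libraries of normoxia siControl: replicate B in normoxia siControl, normoxia siARNT and hypoxia siControl, and replicate C in hypoxia siARNT. After the GC correction the log2 ratio was 0.39 to 0.41 in normoxia siControl, 0.44 to 0.70 in normoxia siARNT, 0.65 to 0.71 in hypoxia siARNT and 3.77 to 3.84 in hypoxia siControl. The difference was then 3.40 for hypoxia in siControl, -3.12 for siARNT in hypoxia, 0.13 for siARNT in normoxia and 0.15 for hypoxia in siARNT. The separation of hypoxia siControl thus remained, and the smaller difference for siARNT in normoxia did not keep its size.

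**Figure D2:**
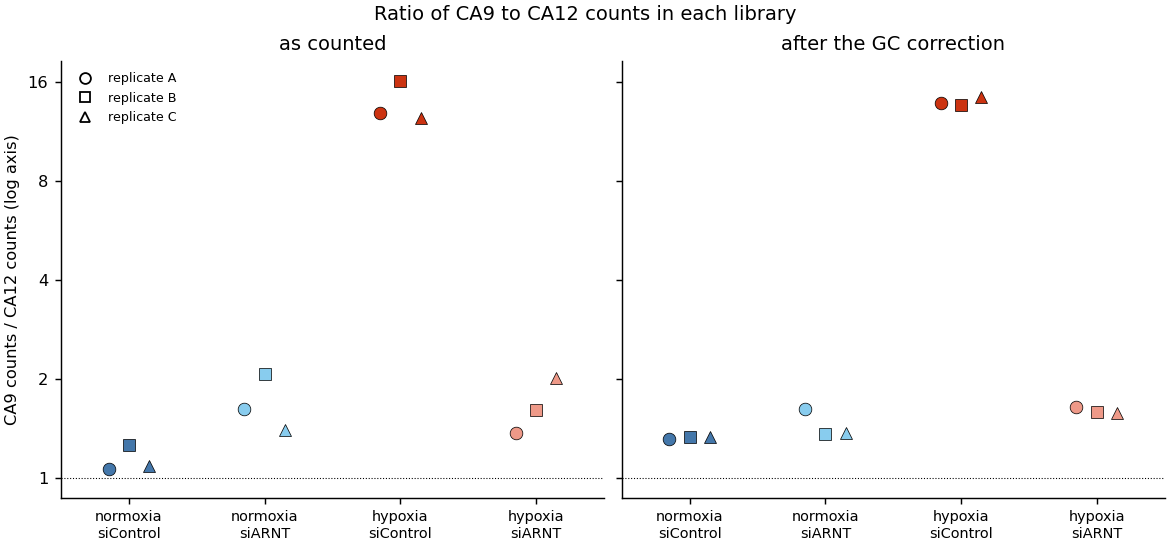
Ratio of CA9 to CA12 counts (vertical axis, log scale) in each of the 12 libraries, by group, as counted on the left and after removal of each library's trend on GC content on the right. Symbols are single libraries and the dotted line marks equal counts. The 3 hypoxia siControl libraries lie at 12.4 to 16.1 as counted and the other 9 at 1.06 to 2.06, and the spread within groups is narrower on the right.

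CA2 (ENSG00000104267.5, chr8:85463852-85481493, plus strand), the cytosolic enzyme, was called in none of the 5 comparisons. It ran from 5.13 to 6.87 CPM in hypoxia siControl and from 6.34 to 7.07 in normoxia siControl. With siARNT it ran from 5.77 to 6.67 CPM under hypoxia and from 5.34 to 6.35 under normoxia. The groups overlapped in each pairwise comparison. The log2 fold change for hypoxia in siControl was -0.13, with a 95% interval from -0.40 to 0.13, and the interaction was 0.23, with an interval from -0.15 to 0.61.

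Levels of different genes were compared per kilobase of exon, since CA9 has 1.67 kb of exon in the annotation, CA2 2.12 kb and CA12 7.31 kb. On this scale, the 12 catalytically active carbonic anhydrase genes had a summed level of 74.6 ± 8.03 CPM per kilobase in hypoxia siControl and 13.1 ± 0.212 in normoxia siControl (SD, n = 3). With siARNT the sum was 22.5 ± 2.09 under hypoxia and 19.5 ± 3.15 under normoxia. CA9 made up 55.1 ± 2.53% of the sum in normoxia siControl and 92.8 ± 0.451% in hypoxia siControl. Its share was 68.3 ± 5.34% in normoxia siARNT and 70.4 ± 4.27% in hypoxia siARNT. CA2 made up 24.2% and CA12 11.1% of the sum in normoxia siControl, against 3.85% and 1.55% in hypoxia siControl. These are shares of a sum that CA9 raised. The level of CA2 per kilobase was 3.16 CPM in normoxia siControl and 2.88 in hypoxia siControl, and that of CA12 was 1.45 and 1.15. In all 12 libraries the order was CA9, CA2, CA12, the mitochondrial enzyme CA5B and the cytosolic enzyme CA13. CA1, CA6 and CA7 had no read in any library.

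**Figure D3:**
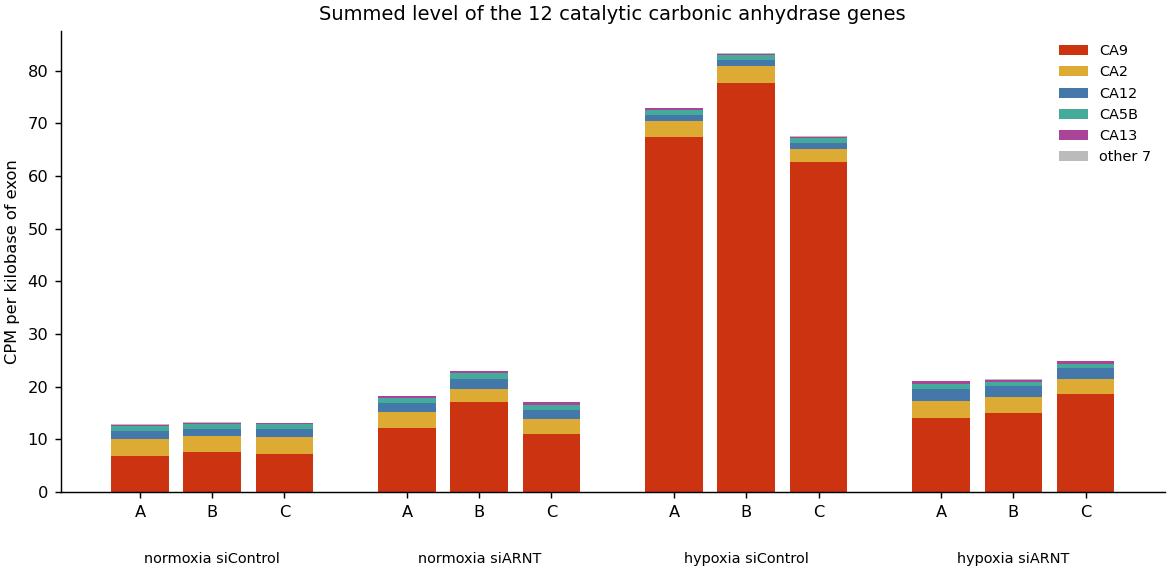
Summed level of the 12 catalytically active carbonic anhydrase genes (vertical axis, CPM per kilobase of exon, from 0) in each library, with the share of single genes as colours. Bars are single libraries, ordered by group and replicate. CA9 fills 92.4 to 93.3% of the bar in hypoxia siControl and 52.7 to 57.8% in normoxia siControl.

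SLC4A7 (ENSG00000033867.12, chr3:27372721-27484420, minus strand), the electroneutral sodium-bicarbonate cotransporter, fell under hypoxia. It held 29.01, 26.7 and 27.3 CPM in normoxia siControl and 17.5, 15.8 and 15.2 CPM in hypoxia siControl. In hypoxia siARNT it held 27.3, 23.8 and 23.2 CPM, and in normoxia siARNT 32.0, 25.9 and 33.3 CPM. The hypoxia siControl libraries lay below all others, and the other 3 groups overlapped. The log2 fold change for hypoxia was -0.78 with siControl (SE 0.10, adjusted p 0.000261). With siARNT it was -0.29 (SE 0.10, adjusted p 0.131). In hypoxia, siARNT raised SLC4A7 by 0.62 (SE 0.10, adjusted p 0.000954). The interaction was 0.48 (SE 0.15) and missed the threshold (adjusted p 0.0883), so the fall was not shown to differ between siControl and siARNT. It passed after the GC correction (0.40, adjusted p 0.00204) and with scaling by total counts (0.53, adjusted p 0.0384). After the GC correction the fall in siARNT (-0.31, adjusted p 0.00113) and a rise with siARNT in normoxia (0.27, adjusted p 0.000989, against 0.13 without the correction) were called as well. Without normoxia siARNT B, the fall in siARNT was also called (-0.39, adjusted p 0.0462).

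SLC4A4 (ENSG00000080493.9, chr4:71062667-71572087, plus strand), the electrogenic cotransporter of the same family and the main one of normal pancreatic duct, was close to absent from these libraries. It had 2, 0 and 1 reads in normoxia siControl, 0, 2 and 0 in normoxia siARNT, 3, 3 and 0 in hypoxia siControl and 5, 3 and 0 in hypoxia siARNT. It did not pass the filter on low counts and was not tested, and no fold is given at these counts.

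SLC16A1 (ENSG00000155380.7, chr1:112911847-112957013, minus strand), the proton-coupled carrier of lactate and pyruvate, was the most abundant of the 6 genes in CPM in every group. It held 233.2, 216.7 and 221.4 CPM in normoxia siControl and 194.5, 198.3 and 189.8 CPM in hypoxia siControl, and these groups did not overlap. It held 192.5 to 231.0 CPM in normoxia siARNT and 177.2 to 204.3 CPM in hypoxia siARNT. The log2 fold change for hypoxia in siControl was -0.20 (SE 0.07, adjusted p 0.0626). It passed the threshold after the GC correction (-0.13, adjusted p 0.0480), with only the 6 samples compared in the fit (-0.21, adjusted p 0.00805), with scaling by total counts (-0.23, adjusted p 0.0263), and without hypoxia siARNT C, normoxia siARNT B or normoxia siARNT C (-0.21 to -0.22, adjusted p 0.0225 to 0.0491). For hypoxia in siARNT it was -0.15 (adjusted p 0.260) and was called after the GC correction (-0.19, adjusted p 0.0131). The changes with siARNT were -0.07 in normoxia and -0.02 in hypoxia, and neither was called. Per kilobase of exon, SLC16A1 stood at 42.1 ± 1.60 CPM in normoxia siControl and 36.6 ± 0.802 in hypoxia siControl, below CA9 in hypoxia siControl (69.3 ± 7.72). SLC16A1 overlaps the antisense gene SLC16A1-AS1, which had 71 to 205 reads. SLC16A1-AS1 fell by 0.69 for hypoxia in siControl (SE 0.12, adjusted p 0.00121). The strand setting of the counting is not given in the sources used here, so reads from the pair may not be separated.

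Side by side, 3 of the 5 tested genes were called for hypoxia in siControl, where 25.3% of all tested genes were called: CA9 rose (10.4% of all genes rose), and CA12 and SLC4A7 fell (14.9% fell). The 2 groups did not overlap for 4 of the 5, including SLC16A1, where 46.8% of all genes did not overlap. For hypoxia in siARNT, edgeR called none of the 5, where it called 4.09% of all genes (2.21% up and 1.89% down). CA12 and SLC4A7 had an unadjusted p under 0.05 there, a count of 2, and DESeq2 called 1, CA12. After the GC correction 4 of the 5 were called, CA9 and CA12 up and SLC16A1 and SLC4A7 down, when 3677 of the 16999 genes were called in place of 696. The groups did not overlap for 1 of the 5, CA12, against 22.2% of all genes.

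For siARNT in normoxia, CA9 and CA12 rose, 2 of the 5, where 20.2% of all genes were called (9.42% up and 10.8% down), and for the same 2 the groups did not overlap (46.5% of all genes). For siARNT in hypoxia, CA9 fell and CA12 and SLC4A7 rose, 3 of the 5, against 29.1% (14.4% up and 14.7% down), and for these 3 the groups did not overlap (40.3%). In the interaction, CA12 was called up and CA9 down, 2 of the 5, against 4.69% (2.49% up and 2.19% down). The median log2 fold change over the 5 was -0.20 for hypoxia in siControl, 0.09 for hypoxia in siARNT, 0.13 for siARNT in normoxia, 0.05 for siARNT in hypoxia and 0.23 in the interaction. Over all genes tested these medians were 0.02, -0.04, 0.01, 0.02 and -0.02. A median over 5 genes moves with single libraries. For siARNT in hypoxia, leaving out any 1 of the 6 hypoxia libraries moved it by over 1.5 times, from -0.04 without hypoxia siControl C to 0.12 without hypoxia siControl B. For hypoxia in siARNT it was 0.03 without normoxia siARNT B and 0.15 without normoxia siARNT A, and for siARNT in normoxia it was 0.06 without normoxia siARNT C and 0.23 without normoxia siARNT B. In the interaction it was 0.13 without hypoxia siControl C. In bulk RNA, a change in the share of cells that carry a transcript and a change in transcript per cell cannot be told apart. The comparisons for hypoxia in siControl and siARNT in hypoxia share the hypoxia siControl libraries.

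**Figure D4:**
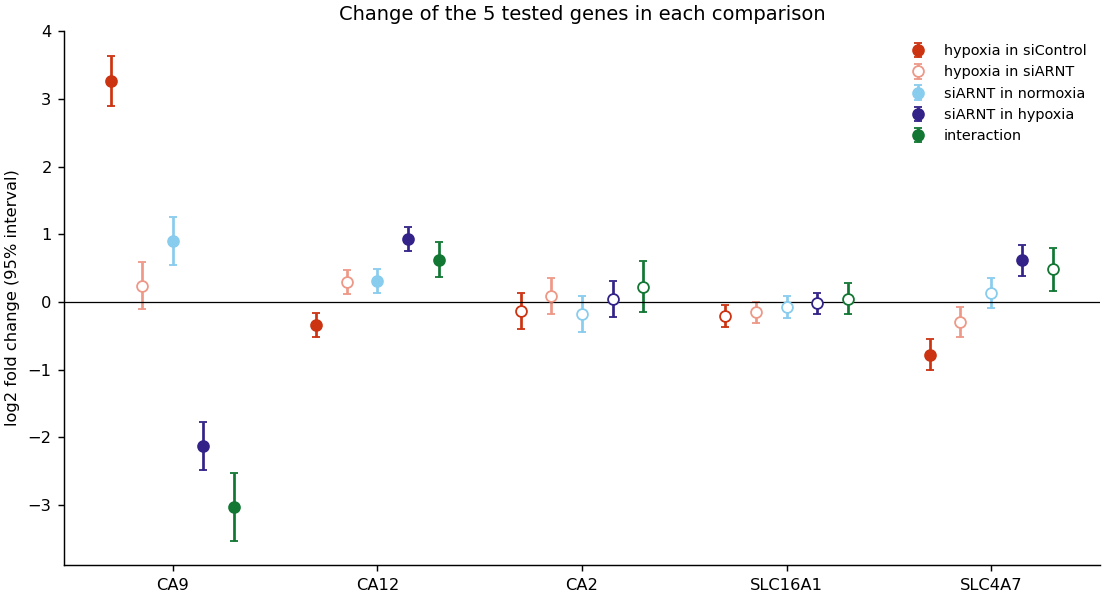
Log2 fold change (vertical axis) of the 5 tested genes (horizontal axis) in the 5 comparisons, with 95% intervals. Filled points passed the threshold and open points did not. The values of CA9 span 3.27 to -3.02, those of CA12 and SLC4A7 carry the opposite signs for hypoxia in siControl, siARNT in hypoxia and the interaction, and the points of CA2 and SLC16A1 are unfilled in each comparison.

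Across the 12 libraries, the genes most like each member were found by Pearson's r of log2(CPM + 0.5) among 9854 genes whose mean reached 5 CPM, as a description. The libraries share groups, so these values mostly describe the pattern over the 4 groups. CA9 was most like HK2, which encodes the glycolytic enzyme hexokinase 2 (r = 0.995), PGAM1, a phosphoglycerate mutase of glycolysis (r = 0.986), and TTC22 (r = 0.981). CA12 was most like TGFBR2, a receptor of TGF-beta (r = 0.987), PKP4, a plakophilin of cell junctions (r = 0.980), and VOPP1 (r = 0.980). SLC4A7 was most like PDSS1 (r = 0.985), PAQR3 (r = 0.981) and FOXA1, a transcription factor of endoderm (r = 0.980). SLC16A1 was most like TMEM33 (r = 0.970), MTFR1 (r = 0.962) and CREM (r = 0.961). The values for CA2 were lower, with CCDC126 at 0.898, AP5M1 at 0.794 and BEND7 at 0.785. Which genes come first depends on the measure. By Spearman's correlation VOPP1 and TMEM33 held rank 1 for CA12 and SLC16A1. By the same measure HK2 held rank 17 for CA9, MTFR1 rank 45 for SLC16A1 and FOXA1 rank 88 for SLC4A7. Among the members themselves, r was -0.91 between CA9 and SLC4A7, -0.53 between CA9 and CA12, and 0.63 between CA12 and SLC4A7.

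The deposited splicing files list 5 events in these genes. They include a skipped exon of 93 nt in CA9 and 3 skipped exons of 108, 175 and 158 nt in SLC4A7. The last is an alternative 3′ splice site in SLC16A1, whose forms differ by 72 nt. The SLC16A1 event was the 1 of these with at least 20 reads over both forms in every library. The form of it counted as inclusion stood at 0 to 4% by the deposited values in every library. The event was called in none of the 5 comparisons (limma, adjusted p 0.947 to 0.996). Of the 36342 tested events, limma called 0.0358% for hypoxia in siControl, 0.0495% for hypoxia in siARNT, 0.022% for siARNT in normoxia, 0.044% for siARNT in hypoxia and 0.0495% in the interaction. At an unadjusted p under 0.05 the SLC16A1 event was also not called, with the smallest p at 0.357. The CA9 exon was joined by 8, 6 and 5 reads and skipped by 0, 4 and 1 reads in normoxia siControl. In hypoxia siControl it was joined by 64.5, 68.5 and 34 reads, as the mean over both junctions, and skipped by 9, 11 and 11. The deposited percent spliced in of this exon was 60 to 100% in normoxia siControl, 76 to 88% in hypoxia siControl and 59 to 88% in hypoxia siARNT. These ranges overlap, and the reads behind the normoxia values are too few to show a difference of this size. The 108-nt exon of SLC4A7 was included at 97, 98 and 100% in normoxia siControl and at 91, 91 and 95% in hypoxia siControl, with 6 skipping reads in all in the latter. In hypoxia siControl C it had 18 inclusion reads and 1 skipping read, so it was not tested at the minimum of 20. A minimum of 10 reads admitted 4 of the 5 events, this exon among them, and those results are not given here. The other two SLC4A7 exons were included at 76 to 100% in every library.

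The other genes of pH regulation were taken as 72 genes in 6 lists, of which 45 were tested. For hypoxia in siControl, 5 of the 45 were called up and 6 down, where 10.4% of all genes were called up and 14.9% down, and the median log2 fold change was 0.08 against 0.02 over all genes (0.03 without hypoxia siControl B and 0.05 without hypoxia siControl A). The total of 11 fell to 6 without hypoxia siControl B or normoxia siControl C, and to 7 without normoxia siControl A. For siARNT in hypoxia, 10 were called up and 5 down, against 14.4% and 14.7%, with a median of 0.13 against 0.02. The median was 0.02 without hypoxia siARNT C, 0.08 without hypoxia siControl C and 0.20 without hypoxia siControl B. That total of 15 fell to 8 without hypoxia siARNT B or hypoxia siControl A. For siARNT in normoxia 9 were called up and 3 down, against 9.42% and 10.8%. The total of 12 became 7 without normoxia siControl A or C. The median there was 0.35 against 0.01, and it was 0.16 without normoxia siARNT B. For hypoxia in siARNT 2 were called, both up, where 4.09% of all genes were called and 2.21% were called up. The count was 0 with only the 6 samples compared and became 1 without any 1 of the normoxia siControl or normoxia siARNT libraries or without hypoxia siARNT A or B. In the interaction edgeR called none of the 45, where 4.69% of all genes were called, with 8 at an unadjusted p under 0.05. DESeq2 called 2, edgeR with scaling by total counts 6 and with the replicate letter as a block 3. The count of 0 became 5 without hypoxia siARNT C and 1 without hypoxia siControl C. After the GC correction the totals were 17 for hypoxia in siControl, 10 for hypoxia in siARNT, 20 for siARNT in normoxia, 23 for siARNT in hypoxia and 7 in the interaction. The same correction raised the numbers over all 16999 genes, to 7241, 3677, 5532, 7832 and 3135.

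Of 3 tested genes in the list of monocarboxylate transporters, 1 was called up for hypoxia in siControl, where 10.4% of all genes were called up. It was SLC16A3 (MCT4), which exports lactate. SLC16A1 was at -0.20 there and missed the threshold. SLC16A3 ran from 11.8 to 24.2 CPM in hypoxia siControl and from 3.75 to 6.65 in normoxia siControl. With siARNT it ran from 4.93 to 13.9 CPM under hypoxia and from 7.33 to 18.5 under normoxia. Its log2 fold change for hypoxia was 1.80 with siControl (SE 0.46, adjusted p 0.0144). With siARNT it was -0.39 (adjusted p 0.645). For siARNT in hypoxia SLC16A3 was not called. It was called lower there after the GC correction (-1.10, adjusted p 0.00157) and without hypoxia siARNT C (-1.47, adjusted p 0.0398). For siARNT in normoxia it was not called either. There it was called higher with the replicate letter as a block (1.17, adjusted p 0.0365) and without hypoxia siARNT C (1.24, adjusted p 0.0478). The interaction was -2.19 (SE 0.64) and missed the threshold (adjusted p 0.0809), but passed it after the GC correction (-1.67, adjusted p 0.00392), with DESeq2 (-2.18, adjusted p 0.0341), with the replicate letter as a block (-2.10, adjusted p 0.0435) and without hypoxia siARNT C (-2.71, adjusted p 0.0298). The rise in siControl was not called without a filter on low counts (adjusted p 0.0746), nor without hypoxia siControl B (1.46), normoxia siControl A (1.65) or normoxia siControl C (1.71), with adjusted p from 0.0562 to 0.0625. SLC16A3 has 62.7% GC in its longest transcript, and its value for hypoxia in siARNT was 0.16 without normoxia siARNT B.

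Of the 8 tested bicarbonate transporters besides SLC4A7, 3 rose for hypoxia in siControl and none fell, against 10.4% and 14.9% of all genes. They were SLC4A10, a sodium-driven member of the family of SLC4A7 (0.91, SE 0.15, adjusted p 0.00108), and the anion exchangers SLC26A6 (0.81, SE 0.25, adjusted p 0.0344) and SLC26A3 (0.65, SE 0.14, adjusted p 0.00532). SLC4A10 and SLC26A3 had log2 fold changes of 0.90 and 0.66 for hypoxia in siARNT, and their interactions of -0.01 and 0.01 missed the threshold (adjusted p 0.980 and 0.9752). The call of SLC26A3 in siARNT was lost in 8 of the fits that left out 1 library (any of the normoxia libraries, or hypoxia siARNT A or B; 0.59 to 0.77, adjusted p 0.0503 to 0.118). It was also lost with the transfected well as a block (adjusted p 0.0755), and with only the 6 samples compared neither SLC26A3 (adjusted p 0.158) nor SLC4A10 (adjusted p 0.0677) was called in siARNT. With siARNT they moved in opposite directions: SLC4A10 rose by 1.14 in normoxia and 1.13 in hypoxia, and SLC26A3 fell by 1.13 and 1.11. SLC4A10 stood at 0.649 ± 0.0820 CPM in normoxia siControl and 2.66 ± 0.281 in hypoxia siARNT, so it was a minor transcript beside SLC4A7. The call of SLC26A6 was lost in 6 fits that left out 1 library of siControl (A or B of hypoxia, any of normoxia) or hypoxia siARNT B, with values from 0.63 to 0.85.

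Of the 12 other carbonic anhydrases and related proteins, 4 were tested. CA11, a related protein without catalytic activity, was the 1 called for hypoxia in siControl (0.65, SE 0.20, adjusted p 0.0306). Over all genes, 25.3% were called in that comparison and 10.4% were called up. CA11 was not called without hypoxia siControl A or B or normoxia siControl A or C (0.56 to 0.68). CA13 was the 1 that edgeR called with siARNT, by 1.04 in normoxia (adjusted p 0.00715) and 1.06 in hypoxia (adjusted p 0.00324). It is named after its values were seen. Of all genes, 9.42% were called up with siARNT in normoxia and 14.4% in hypoxia. The count in normoxia was 2 with DESeq2, with the replicate letter as a block and without a filter on low counts. It was also 2 without hypoxia siARNT C or normoxia siARNT A. CA11 missed the threshold for siARNT in normoxia (0.57, adjusted p 0.0581).

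Of 10 tested sodium-proton exchangers and their regulators, 2 fell for hypoxia in siControl, where 14.9% of all genes fell. They were SLC9B2 (-0.85, SE 0.12, adjusted p 0.000373) and SLC9A2 (-0.33, SE 0.08, adjusted p 0.00870). Both rose with siARNT in hypoxia, SLC9A2 by 0.71 (adjusted p 4.6e-05) and SLC9B2 by 0.46 (adjusted p 0.0137), although the latter was not called without hypoxia siARNT B or hypoxia siControl A (0.44 and 0.45). With siARNT in hypoxia, 2 of the 10 were called up and 2 down, against 14.4% and 14.7% of all genes. That total of 4 was 1 without hypoxia siARNT B or hypoxia siControl A. SLC9A2 was also called with siARNT in normoxia under every alternative setting (0.33 to 0.48). In normoxia 3 of the 10 were called up with siARNT and none down, against 9.42% and 10.8%. Those 3 calls became 1 without normoxia siControl A or C. SLC9A2 held 20.5 to 21.8 CPM in hypoxia siControl and 32.0 to 38.8 in hypoxia siARNT, without overlap.

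Of 18 tested subunits of proton pumps, 3 fell for hypoxia in siControl and none rose, against 14.9% and 10.4% of all genes. They were subunits of the V-type ATPase: ATP6V0A2 (-0.70, SE 0.08, adjusted p 0.000115), ATP6V1B2 (-0.33, SE 0.09, adjusted p 0.0172) and ATP6V1E1 (-0.29, SE 0.05, adjusted p 0.00217). ATP6V1B2 was not called without hypoxia siControl B (-0.25) or normoxia siControl C (-0.27). With siARNT in hypoxia 5 subunits rose and 2 fell, against 14.4% and 14.7% of all genes. This total of 7 was 4 without hypoxia siARNT B, hypoxia siControl A or hypoxia siControl C, and 11 after the GC correction. Among them, ATP6V1A rose by 1.06 (SE 0.08) and ATP6V1G1 fell by 1.18 (SE 0.09), both named after their values were seen. Both were also called with siARNT in normoxia, in the same directions. The log2 fold changes there were 0.68 (SE 0.08) for ATP6V1A and -0.95 (SE 0.09) for ATP6V1G1. By edgeR, their interactions of 0.38 and -0.22 missed the threshold (adjusted p 0.0727 and 0.333). Of 2 tested proton-sensing receptors, GPR65 fell for hypoxia in siControl (-1.51, SE 0.42, adjusted p 0.0207). GPR65 lies under 1 CPM, was named after its values were seen, and was not called without hypoxia siControl B or C or normoxia siControl A or C (-1.30 to -1.56).

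**Figure D5:**
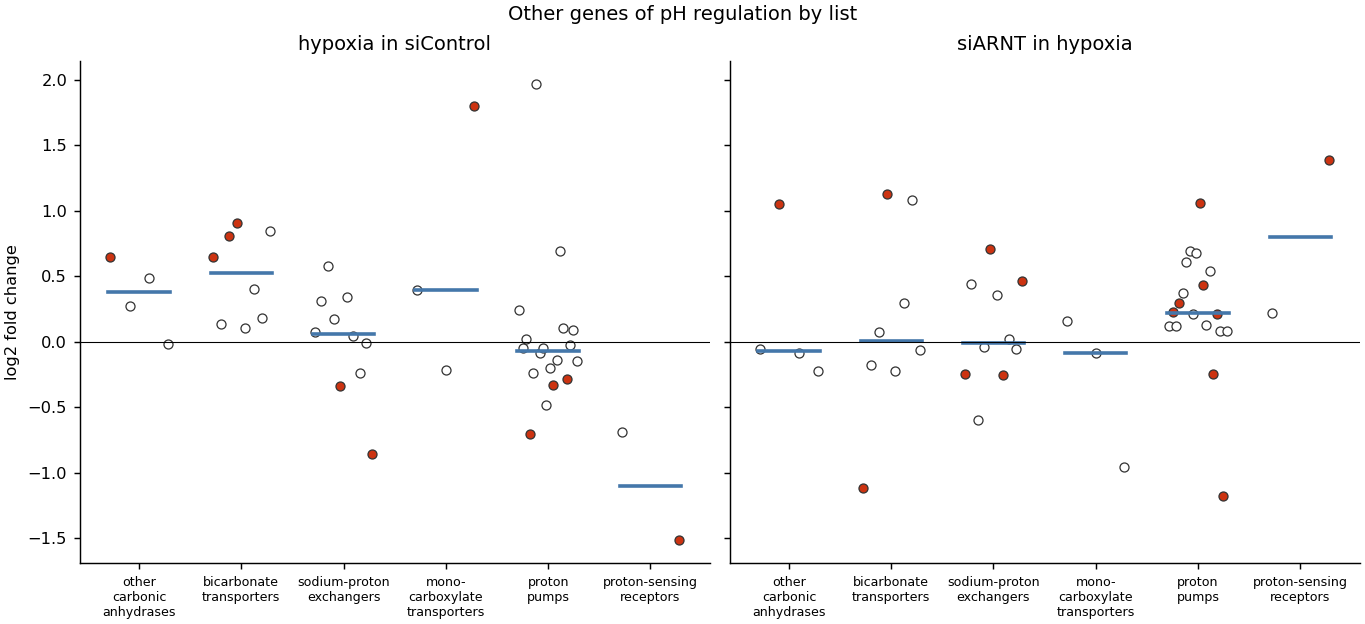
Log2 fold change (vertical axis) of the 45 tested genes of pH regulation other than the 6, by list (horizontal axis), for hypoxia in siControl on the left and siARNT in hypoxia on the right. Points are genes, filled where called, and blue lines are list medians. SLC16A3 at 1.80 is the called point with the largest rise on the left.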

How the data were processed

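Gene counts are whole reads per gene ID in each of the 12 libraries, as deposited by the authors; the counter HTSeq is known from the names of the deposited files alone, and its version, annotation and strand setting are not given in the sources used here. Per the submitters' processing notes, Trimmomatic, STAR 2.4.2a and GRCh38.p10 were used. Lines that name no gene held 22.7 to 25.2% of reads and were left out. Of 57820 IDs, 51996 could be given a symbol from the gene name table provided. Coordinates, exon lengths and GC content are those of GENCODE release 29.

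The count test was the quasi-likelihood test of edgeR 4.0.16 in R 4.3.3, fitted robustly to all 12 samples (1 mean for each group) after TMM scaling and filterByExpr, and followed by Benjamini-Hochberg adjustment over all genes within each comparison, with calls at an adjusted p under 0.05. SE was taken as the fold change (log2) over the square root of F. For the GC correction, a trend of counts on GC content (a spline with 5 degrees of freedom) was fitted per library and used as offsets, which come from the same counts. The script was tested on simulated data. DESeq2 1.42.0 was an alternative. The deposited event files give junction read counts, their coverage as a mean over both junctions for an included exon, and the percent spliced in as a fraction, per the file headers. Events were tested with limma 3.58.1 on log2 of the inclusion over exclusion reads, with 0.5 added to each. The genome build of the event files is not given in the sources used here. Reads carry no molecular identifiers. No interval here covers more than the spread between libraries.

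The 6 genes, the lists and the tests were chosen with earlier results of these data known. Of each list, the text names members called for hypoxia in siControl or in the interaction with a mean of at least 1 CPM, at most 4 by size of change; for each of the 6 genes, it names the 3 most correlated genes.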

Additional observations from a re-analysis of the deposited data

Results flagged for a closer look

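CA9 and CA12 responded to hypoxia differently in siARNT and in siControl cells by the interaction test (edgeR). For CA9 the hypoxia change was 3.27 in siControl and 0.24 in siARNT. Its interaction was -3.02 (adjusted p 3.42e-05), and -2.63 after the GC correction. It ran from -3.16 to -2.80 over the fits that left out 1 library. For CA12 the hypoxia change was -0.34 in siControl and 0.29 in siARNT, an interaction of 0.63 (adjusted p 0.0118), and it ran from 0.59 to 0.68 over the same fits. The CA12 interaction was not called with the transfected well as a block (0.63, adjusted p 0.0625) or without a filter on low counts (0.605, adjusted p 0.0556).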

How the results depend on the processing

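The 25 results of the 5 tested genes in 5 comparisons gave 510 values under alternative settings, of which 468 kept their direction and their side of the threshold, 10 lost a call, 23 gained one and 9 changed sign. After the GC correction the numbers of genes called were 7241 for hypoxia in siControl, 3677 for hypoxia in siARNT, 5532 for siARNT in normoxia, 7832 for siARNT in hypoxia and 3135 in the interaction, against 4299, 696, 3431, 4948 and 797. With the GC correction and the replicate block together they were 7483, 3926, 5916, 8097 and 3386. At an adjusted p under 0.01 they were 2553, 125, 1356, 3008 and 214. In a separate setting that required a size of 1 or more (log2) of a called gene, they were 483, 100, 447, 756 and 178. For hypoxia in siARNT the number was 22 with only the 6 samples compared and 136 with the transfected well as replicate block, and in the interaction it was 373 with that block and 1495 with scaling by total counts. Without 1 library each, the numbers ran from 2873 to 5242, 129 to 707, 1571 to 4148, 3537 to 5847 and 272 to 1188. The cause was not tested.

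CA12 lost its call without a filter on low counts (hypoxia in siControl -0.33, siARNT in normoxia 0.32, interaction 0.605), with only the 6 samples compared (siARNT in normoxia 0.30) and with the transfected well as replicate block (interaction 0.63, adjusted p 0.0625). CA12 was called for hypoxia in siARNT with DESeq2 (0.30), the GC correction (0.32, and 0.32 with the replicate block) and scaling by total counts (0.32), and CA9 with the GC correction (0.46, and 0.46 with the block). Without 1 library each, CA12 ran from -0.37 to -0.30 for hypoxia in siControl, 0.25 to 0.33 for hypoxia in siARNT and 0.26 to 0.34 for siARNT in normoxia, and the log2 ratio of CA9 to CA12 from -0.18 to 0.12 for hypoxia in siARNT, where it was 0.15 after the GC correction. The sign changes of uncalled values were as follows. SLC16A1 was at 0.048 for siARNT in normoxia with the GC correction and at 0.049 with the block as well. For siARNT in hypoxia SLC16A1 was at 0.0042 with 6 samples and 0.059 with total counts, and it ran from -0.067 to 0.034 without 1 library each. In the interaction SLC16A1 was at -0.0607 with the GC correction, -0.0605 with the block as well, and -0.0009 to 0.11 without 1 library each. ARNT was at -0.0198 and -0.0196 in the interaction under the same corrections. Without 1 library each, CA2 ran from -0.069 to 0.12 for siARNT in hypoxia, SLC16A3 from -0.91 to 0.16 for hypoxia in siARNT, and the SLC16A1 splice event from -1.39 to 1.42 for hypoxia in siARNT and from -1.71 to 0.92 for siARNT in hypoxia.

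Whether replicate letters pair the samples was not settled. In deviations from the group means, same-letter libraries of different groups had correlations of -0.431 to 0.529, and different-letter libraries had -0.636 to 0.626. Outside hypoxia siARNT, same-letter correlations were 0.072 to 0.529 and different-letter ones were -0.449 to 0.328. The transfected-well block takes the letter as the name of the well. With the letter as replicate block SLC4A7 was called in the interaction (0.48, adjusted p 0.0445). The transfected well cannot serve as a block for the 2 siARNT comparisons. Low counts limit SLC4A4, at 5 reads or fewer in each library, and the CA9 exon event.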
